A study of Arabidopsis thaliana with 22 samples.

Results

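Trimethylation of histone H3 at lysine 4 (H3K4me3) was compared between rosette leaves and untreated shoot apices of Arabidopsis thaliana, with 2 ChIP-seq libraries for each tissue. These are 4 of the 16 ChIP libraries of the study, which holds 22 samples with its inputs; they were taken by mark and stage, and replicates 1 and 2 were kept apart. The study followed H3K4me3 and H3K27me3 in 4 stages, namely leaf, the apex at t0, the apex at t2 (2 days after induction of flowering with 10 µM dexamethasone) and the inflorescence. The leaf libraries came from rosette leaves of flowering wild-type plants of the accession Landsberg erecta (Ler). The apex t0 libraries came from untreated plants of the genotype ap1-1 cal-1 35S::AP1:GR, also in the Ler background. Such plants form cauliflower-like heads of meristems, because APETALA1 (AP1) and CAULIFLOWER (CAL) are both mutated, and they carry AP1 fused to the glucocorticoid receptor under the constitutive 35S promoter. Apices were dissected so as to keep leaf and pedicel tissue low, per the labels. Neither a wild-type apex nor a leaf of the mutant line is among the groups, so tissue and genotype cannot be told apart. Reads that map to AP1 in the apex can come from the transgene as well as from the native gene. Each ChIP reaction took 10 µg of wild-type or 15 µg of apex chromatin. Inputs are labelled for apex t2 and inflorescence, and which control served leaf and apex t0 is not given in the sources used here.

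H3K4me3 is placed around the start of transcribed genes by SET-domain methyltransferases such as ATX1 and ATXR3, while H3K27me3 is placed by the Polycomb repressive complex over the bodies of silenced genes. In the shoot meristem, KNOX homeodomain proteins such as SHOOT MERISTEMLESS (STM) keep cells undifferentiated, and the CUC proteins set the boundary between meristem and organ. In leaves these genes are known to be silenced by Polycomb, and leaf cells are devoted to photosynthesis.

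The authors' files list islands, stretches enriched for the mark, with the ChIP reads in each. The value of a gene here is the reads of its islands, weighted by the share of each island inside the gene body, per 1000000 island reads of the library (RPM). It is therefore a share of all island reads, and a change in the total amount of the mark would not show. A gene with no island counts as 0 RPM in the test, although a missing island only fell below the authors' threshold and is no measured 0. The leaf libraries held 6635471 and 23673881 island reads in 14589 and 16214 islands, and the apex t0 libraries 10707862 and 22051140 reads in 15232 and 15961 islands. Leaf replicate 1, the shallowest of the 4, had no island on 1904 genes that were marked in leaf replicate 2, and carried islands on 252 genes with none in leaf replicate 2. Of these, 132 had the same pattern in the inflorescence, the other wild-type stage, with an island in replicate 1 and none in replicate 2; the flower meristem genes LFY and UFO are among them, and the cause was not tested. In whole tissue, fewer cells carrying the mark and less mark per cell cannot be told apart.

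The labelled tissues were checked against marker genes. Of the 16 meristem markers, 14 had an island in both apex libraries. Of these, STM, KNAT1, KNAT2, KNAT6, ANT, AIL5, AIL6 and AIL7 had no island in either leaf library, BLH8 and ATH1 had one in leaf replicate 2 alone, and BLH9, CRN, CLV1 and CLV2 had one in both. WUS, which defines the stem cell organizer, had an island in apex replicate 2 alone, at 10.7 RPM, and the stem cell gene CLV3 had none in any of the 4 libraries. The 6 root markers had no island in any of the 4 libraries. Of 8 anther and pollen wall markers 5 had no island in any of the 4, and the list summed to 0 and 54 RPM in leaf and to 23 and 40 RPM in the apex; 4 were tested and 1 was called, A6, at 8.41 and 14 RPM in the apex only, a call that ended without any leaf, apex t0 or apex t2 library (adjusted p up to 0.17). Of the 42 genes of light harvesting and the photosystems, which mark leaf mesophyll, 41 were marked in all 4 libraries and LHCB2.3 in leaf alone. They summed to 3835 and 2806 RPM in leaf and to 2643 and 2190 RPM in the apex. How far leaf cells left in the apex samples contribute to that sum was not tested.

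Of 17588 genes tested, 745 were higher in the apex (4.24%) and 676 were lower (3.84%), 8.08% in all, by limma at an adjusted p of 0.05 over all genes tested. Islands lay in all 4 libraries on 14856 of the genes tested (84.5%). The calls divide almost evenly between changes of level and changes of presence. Of the 745, 372 had islands in all 4 libraries and 353 had an island in both apex libraries and no leaf library; of the 676, 341 had islands in all 4 and 321 had an island in both leaf libraries and no apex library. The median log2 fold change over all genes tested was 0.04. With the replicate number as a block, 1350 genes were higher (7.68%) and 1187 lower (6.75%), among them all of the 745 and 675 of the 676. The counts depend on single libraries: without leaf replicate 1, leaf replicate 2, apex t0 replicate 1 and apex t0 replicate 2 in turn, 524, 2277, 265 and 244 genes were called higher and 199, 761, 275 and 375 lower. Without apex t2 replicate 1 or 2, which enter through the shared spread, 401 and 347 were higher and 446 and 390 lower. A call that passed with each of the 8 H3K4me3 libraries left out in turn is named below as a call that held; 304 did (193 higher, 111 lower).

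**Figure D1:**
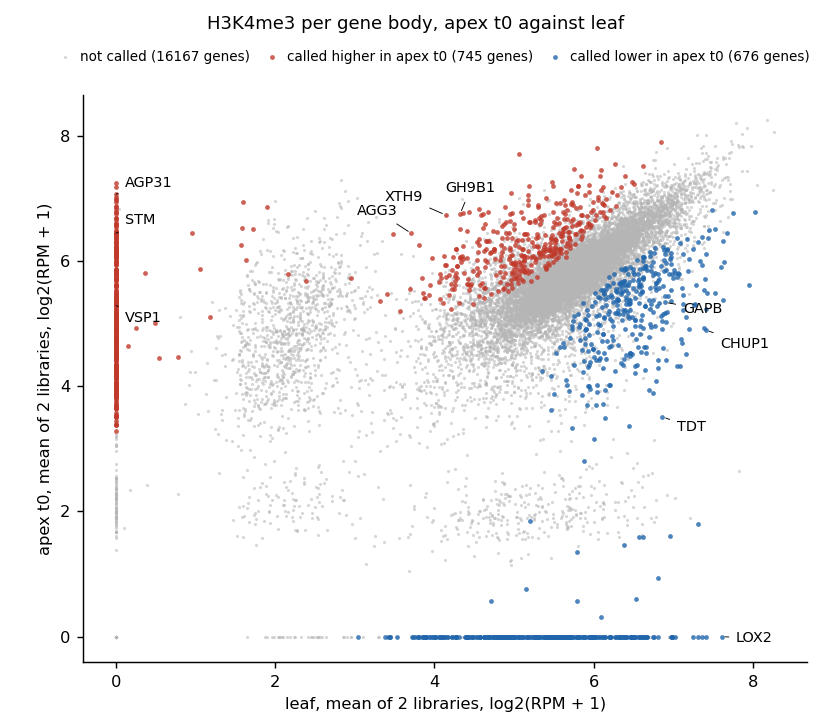
H3K4me3 per gene body in leaf (x axis) and apex t0 (y axis), each the mean of log2(RPM + 1) over 2 libraries, for the 17588 genes tested; red points are the 745 genes called higher, blue points the 676 called lower and grey points the rest. Genes on the axis at 0 had no island in that tissue, as STM in leaf and LOX2 in the apex.

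The genes are described by 25 lists of known roles. A list's median log2 fold change is given over its members with islands in all 4 libraries, where the median over all such genes was 0.02, because with leaf or apex at 0 RPM the pseudocount sets the size of a fold. Many members of the meristem, boundary, cell cycle and flower lists entered the test only through their apex islands, so the direction of their calls could hardly have been the other one. Where neither library of a tissue had an island, the equal values of 0 RPM add no spread to the main fit, which can understate it. Leaving out 1 of these libraries does not change the fold change either. For such genes, that a call held says little about the tissue without islands. The share called higher in the apex was largest for meristem regulators and organ boundary genes, and the share called lower was largest for photorespiration. Members and lists were chosen with earlier results of these data known, so these shares are descriptions and no test of the lists. The lists of histone methylation enzymes and of floral organ identity had tested genes but no call in either direction.

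**Figure D2:**
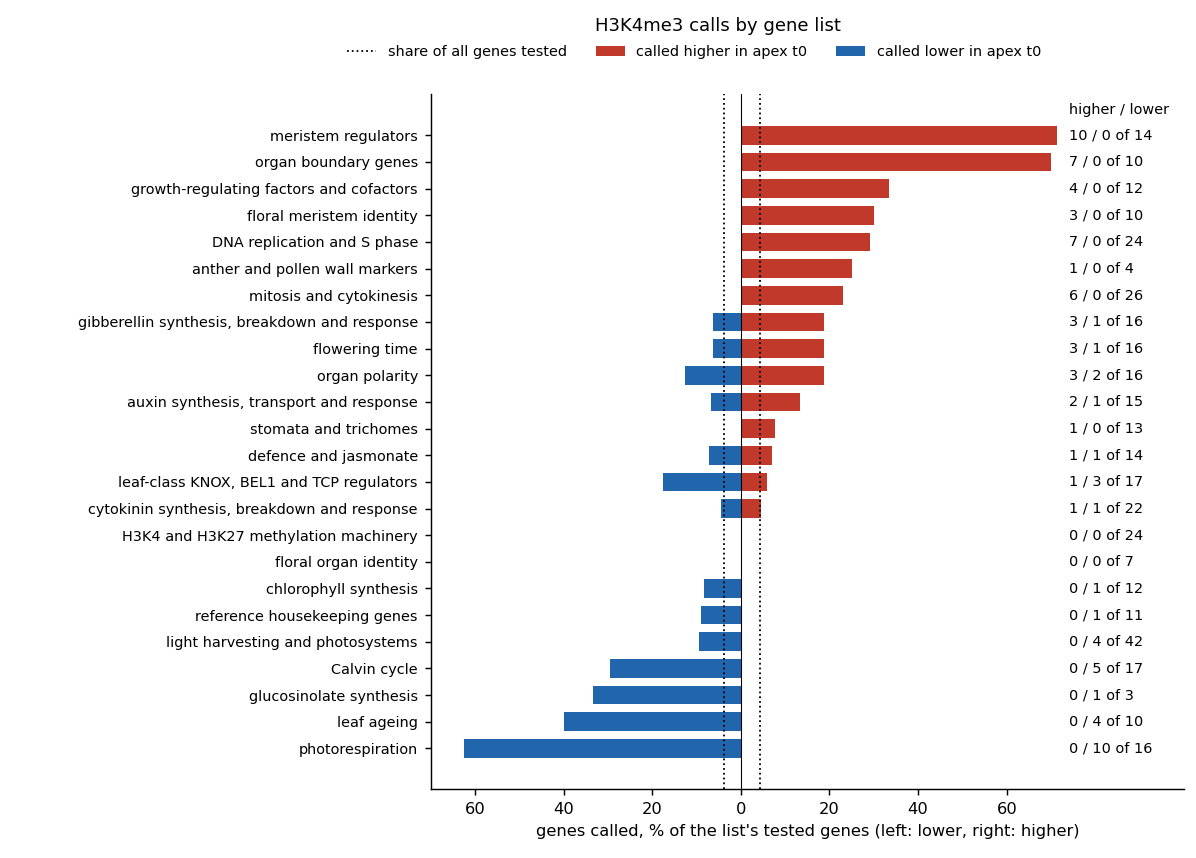
Share of the tested genes of each list (y axis) that were called higher (red, to the right) or lower (blue, to the left) in apex t0, in % of the list's tested genes; lists with fewer than 3 tested genes are left out, and dotted lines give the shares over all genes tested, 4.24% and 3.84%. Meristem regulators reached 10 of 14 higher and photorespiration 10 of 16 lower.

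Meristem regulators carried the mark in the apex and, for most, not in the leaf. Of 16 members 14 were tested, 10 were higher and none lower; 8 of the 10 had no leaf island. Over the 4 members with islands in all 4 libraries the median log2 fold change was 0.73. The AINTEGUMENTA-LIKE genes, whose AP2-type products promote growth of young organs and keep the meristem active, behaved as a group: AIL5 measured 34.9 and 75 RPM, AIL6 58.6 and 90.5 RPM and AIL7 63.9 and 109 RPM in the apex libraries, with no island in either leaf library. The KNOX genes KNAT2 (102 and 97.6 RPM) and KNAT6 (79.9 and 87.6 RPM) likewise had apex islands only. Both carried H3K27me3 in leaf, 368 and 320 RPM on KNAT2 and 376 and 308 RPM on KNAT6, against at most 25.5 RPM in an apex library. STM, at 74.9 and 98.7 RPM of H3K4me3 in the apex, had H3K27me3 in all 4 libraries of that mark, 280 and 196 RPM in leaf and 163 and 120 RPM in the apex. The island on STM spanned chr1:23059801-23061800 in apex replicate 1 and chr1:23059601-23061800 in replicate 2 (build TAIR10).

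Other members were marked in both tissues. BLH9, the BEL1-like partner of KNOX proteins also called REPLUMLESS, measured 32.6 and 45.5 RPM in leaf and 125 and 106 RPM in the apex. Its groups did not overlap, and the log2 fold change was 1.56 ± 0.19 (SE, n = 2 per tissue, adjusted p = 0.00777). CRN, a pseudokinase that acts in CLAVATA signalling, measured 31 and 40.3 RPM in leaf and 92.9 and 102 RPM in the apex, a log2 fold change of 1.43 ± 0.19 (adjusted p = 0.00913). The receptor kinase CLV1 of the same pathway was not called: it measured 228 and 188 RPM in leaf and 233 and 192 RPM in the apex, a log2 fold change of 0.03 ± 0.22 (adjusted p = 0.959). The calls of BLH9 and CRN ended without apex replicate 1 (adjusted p 0.0527 for BLH9) and that of CRN also without apex replicate 2 (0.0569); the 8 others held.

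Organ boundary genes were the second such group. Of 10 members all were tested, 7 were higher and none lower, and BOP2 and LSH3, the 2 with islands in all 4 libraries, had a median log2 fold change of 1.69; the summed level of the list was 41 and 81 RPM in leaf and 495 and 573 RPM in the apex. CUC2 measured 40.3 and 49.9 RPM and CUC3 43.1 and 64.8 RPM in the apex, with no leaf island. LATERAL SUPPRESSOR (LAS), a GRAS-type regulator needed for axillary meristems, measured 38.8 and 42.3 RPM, and LSH4, a boundary gene of the ALOG family, 60.8 and 74.7 RPM. In the inflorescence libraries CUC2, CUC3 and LAS had no island, and LSH4 had 16.4 and 32.8 RPM. H3K27me3 was present on LAS and CUC2 in both tissues, for LAS at 127 and 110 RPM in leaf and 151 and 131 RPM in the apex. BOP2, which with BOP1 patterns the leaf base, was marked in all 4 libraries at 15.5 and 32.8 RPM in leaf and 80.2 and 81.1 RPM in the apex, a log2 fold change of 1.79 ± 0.32 (adjusted p = 0.0233). LSH3 was at 25.9 and 36.9 RPM in leaf and 111 and 82 RPM in the apex (adjusted p = 0.0118 for a log2 fold change of 1.59 ± 0.23). H3K27me3 lay on it in leaf only, at 106 and 78.1 RPM. CUC1 had apex islands only, at 48.8 and 63.5 RPM, without passing the test (adjusted p = 0.0747). It passed with the block (0.0444) and with the 4 libraries alone (0.0384), and not under TMM scaling or quantile normalization. The calls of CUC2, CUC3, LAS and LSH4 held; those of LOB, BOP2 and LSH3 ended without apex t0 replicate 1 (adjusted p up to 0.133), those of LOB and LSH3 without leaf replicate 1, and those of LOB and BOP2 without apex t0 replicate 2 or either apex t2 library. Without leaf replicates 1 and 2 and apex t0 replicates 1 and 2 in turn, 5, 8, 4 and 5 members were called.

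Regulators of the change to flowering were split. Of 10 tested genes of floral meristem identity 3 were higher and none lower (3 and 1 with the block), with a median log2 fold change of 0.42 over the 4 with islands in all 4 libraries. Of 16 tested flowering time genes 3 were higher and 1 lower (median -0.02 over 10). The member lower with the block was SVP, a MADS-box repressor of flowering, at 97.1 and 98.8 RPM in leaf and 41.6 and 65.9 RPM in the apex (-0.89 ± 0.32, adjusted p = 0.158, and 0.0369 with the block). It carried H3K27me3 in the apex only, at 128 and 133 RPM. SQUAMOSA PROMOTER BINDING-LIKE genes, the miR156-regulated activators of flowering, gave the flowering time calls: SPL4 measured 68.7 and 56.1 RPM, SPL5 42.8 and 38.7 RPM and SPL15 41.7 and 55.7 RPM in the apex, without an island in leaf. These 3 calls held, and SPL5 and SPL15 had no H3K27me3 island in any of the 4 libraries of that mark. SPL9 and SPL3 were marked in both tissues and were not called, SPL9 at 30.1 and 70.8 RPM in leaf and 102 and 102 RPM in the apex (adjusted p = 0.127). SNZ, an AP2-type repressor of flowering, had islands in leaf only, at 68.9 and 59.2 RPM; its call ended without leaf replicate 1 (adjusted p = 0.0842). With the block 2 flowering time genes were lower, the second being RAV2, a repressor of the TEMPRANILLO group. RAV2 measured 168 and 89.5 RPM in leaf and had no apex island (adjusted p = 0.0594, and 0.0364 with the block). Its inflorescence replicates, which enter the shared spread, read 37.1 and 0 RPM.

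AP1, the mutated and also the transgenic gene, measured 97.2 and 121 RPM in the apex with no leaf island, and its call held. CAL, its mutated paralogue, had islands in both apex libraries, of no more than 42.9 RPM, and at most 0.42 RPM in leaf, and DRN, an AP2-type gene of early organ founder cells, had 16.8 and 18.2 RPM in the apex and none in leaf; both calls ended without leaf replicate 1 (adjusted p up to 0.0724), and both also without apex t0 replicate 2 or apex t2 replicate 2, with DRN lost besides without apex t0 replicate 1. Without leaf replicates 1 and 2 and apex t0 replicates 1 and 2 in turn, 1, 5, 2 and 1 genes of this list were called. The flowering integrators SOC1 and FUL did not pass. SOC1 measured 98.4 and 115 RPM in leaf and 100 and 112 RPM in the apex, so its groups overlapped, with a log2 fold change of -0.01 ± 0.42 (adjusted p = 0.997). FUL measured 21.7 and 62.6 RPM in leaf and 62.8 and 72.3 RPM in the apex, a log2 fold change of 0.85 ± 0.48 (adjusted p = 0.35). H3K27me3 was present on both in leaf only, at 215 and 55.5 RPM on SOC1 and 375 and 210 RPM on FUL, with no island of that mark in the apex. LFY read 69.2 and 0 RPM in leaf and 83.5 and 68.3 RPM in the apex, so that its value rests on the disagreement of the leaf replicates. Of 14 floral organ identity genes 9 had no island in any of the 4 libraries. Of the 7 tested, 0 were called by limma, with or without the block, and 1 passed at an unadjusted p of 0.05; SEP3, at 70.8 and 74.9 RPM in the inflorescence, had none in leaf or apex t0.

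Growth-regulating factors (GRF), transcription factors that drive cell proliferation in young leaves with their cofactors (GIF), were called in the apex direction alone. Of 12 members all were tested, 4 were higher and none lower, and over the 5 with islands in all 4 libraries the median log2 fold change was 0.20. The other members were not marked in both leaf libraries, so they could hardly have been called lower. GRF5 (AT3G13960) measured 122 and 128 RPM, GRF6 (AT2G06200) 76 and 72.1 RPM and GIF1, the cofactor also called AN3, 79.7 and 99.9 RPM in the apex, all without a leaf island, and these calls held. Several GRF symbols are shared in the gene table with 14-3-3 proteins, so the loci identify the genes meant here. GRF1 (AT2G22840) measured 105 and 90.6 RPM in leaf and 105 and 92.8 RPM in the apex, a log2 fold change of 0.02 ± 0.15 (adjusted p = 0.968). GRF2 (AT4G37740) was called at 0.59 ± 0.12 (adjusted p = 0.034), and that call ended without any 1 of 7 libraries, all but inflorescence replicate 2, the adjusted p reaching 0.154. The cofactors GIF2 and GIF3 were marked in all 4 libraries and were not called. Without leaf replicate 2, 7 members were called.

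Organ polarity genes changed on both sides. Of 16 tested 3 were higher and 2 lower (5 and 2 with the block), with a median log2 fold change of 0.66 over the 11 with islands in all 4 libraries. The HD-ZIP III gene PHB, which sets upper-side identity, measured 35 and 35.5 RPM in leaf and 115 and 120 RPM in the apex, a log2 fold change of 1.71 ± 0.15 (adjusted p = 0.00384), and its call held. Its island lengthened from chr2:14643401-14644200 in leaf replicate 1 and chr2:14643401-14644400 in leaf replicate 2 to chr2:14642001-14644400 in both apex libraries, and covered 17.4% of the gene body in leaf and 46.8% in the apex. REV, of the same family, measured 61.2 and 75.3 RPM in leaf and 116 and 126 RPM in the apex, a log2 fold change of 0.82 ± 0.18 (adjusted p = 0.0422), and AS1, a MYB repressor of KNOX genes in organs, 50.9 and 63.4 against 110 and 101 RPM (0.88 ± 0.14, adjusted p = 0.0157). YAB3 and YAB5, of the YABBY family of lower-side identity, were lower: YAB3 measured 40.7 and 50.1 RPM in leaf and 21 and 23.2 RPM in the apex (adjusted p = 0.0305), and YAB5 14.6 and 22.9 RPM in leaf with no apex island. The calls of REV, AS1, YAB3 and YAB5 ended without either apex t0 library or apex t2 replicate 2 (adjusted p up to 0.161). Those of REV, AS1 and YAB5 also ended without leaf replicate 1, that of YAB5 without leaf replicate 2, those of REV, AS1 and YAB3 without apex t2 replicate 1 and that of YAB3 without either inflorescence library; without leaf replicate 2, 6 members were higher.

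Genes of the cell cycle were higher in the apex wherever they were called. Of 26 tested genes of mitosis and cytokinesis 6 were higher, 11 with the block and 12 with quantile normalization, and none was lower. Islands lay in both apex libraries on 24 of the 26 and in both leaf libraries on 3, so most could hardly have been called lower. Of these 3 CYCA2;2, an A-type cyclin, was higher, at 18.6 and 29 RPM in leaf and 50.1 and 48.5 RPM in the apex (1.05 ± 0.23 on the log2 scale, adjusted p = 0.0432). CYCA2;3 measured 12.8 and 20.6 against 35.5 and 64.1 RPM (adjusted p = 0.0635, and 0.0117 with the block), and the Aurora kinase gene AUR3 8.29 and 20.5 against 30.9 and 36.9 RPM (adjusted p = 0.154, and 0.0459 with the block). Summed over the list, the level was 40 and 269 RPM in leaf and 999 and 1664 RPM in the apex, so the leaf replicates also differed widely. CYCA1;1, a cyclin of late S phase and mitosis, measured 61.8 and 98.5 RPM in the apex, the kinase gene CDKB1;1 40.4 and 58.5 RPM and CDC20.2, an activator of the anaphase-promoting complex, 51.2 and 104 RPM, each with no leaf island. CDC20.2 has a neighbouring near-identical copy, CDC20.1, so reads on either are uncertain; part of the long apex island on CDC20.2 in replicate 2 also lay on EIF3K. Several B-type cyclins were not called: CYCB1;1 measured 31.1 and 62.9 RPM in the apex and nothing in leaf, with an adjusted p of 0.134; the inflorescence replicates, which enter the shared spread, read 0 and 59.3 RPM. The cytokinesis syntaxin gene KNOLLE had the same pattern, with 49.5 and 57.1 RPM in the apex and 0 and 52.1 RPM in the inflorescence (adjusted p = 0.109). Of the 6 calls, CDKB1;1, CYCA1;1 and CDC20.2 held; those of CYCA2;2 and AUR2 ended without leaf replicate 1 or any apex library of t0 or t2 (adjusted p up to 0.217), that of CYCA2;2 also without either inflorescence library, and that of CYCA2;1 without apex t0 replicate 2 (0.0582). Without leaf replicate 1, leaf replicate 2 and apex replicates 1 and 2 in turn, 4, 16, 5 and 3 members were called higher.

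DNA replication and S phase followed. Of 24 tested genes 7 were higher and none lower; with the block 11 were higher. Of the 16 with islands in all 4 libraries 13 had a positive log2 fold change, with a median of 0.57. MCM3 and MCM5, subunits of the replicative helicase, measured 21.1 and 45.3 RPM and 26.4 and 59.9 RPM in the apex with no leaf island, and so did CDC6, which loads that helicase, at 18.5 and 43.1 RPM. Topoisomerase II (TOPII) measured 71.3 and 131 RPM in the apex and had no leaf island, and its call held. CYCD3;2 and CYCD3;3, of the D-type cyclins that start the cycle, were marked in both tissues. CYCD3;2 measured 24.3 and 36.6 RPM in leaf and 112 and 102 RPM in the apex, a log2 fold change of 1.81 ± 0.19 (adjusted p = 0.00574). CYCD3;3 measured 17 and 32.3 against 88.4 and 94 RPM (1.91 ± 0.28, adjusted p = 0.0123). Groups of both cyclins did not overlap, and the CYCD3;2 call held. Their relative CYCD3;1 was not called (adjusted p = 0.1), and its leaf replicates differed widely. CDT1A, a licensing factor, measured 16.9 and 22.3 RPM in leaf and 52 and 80.2 RPM in the apex (1.68 ± 0.28, adjusted p = 0.0187), while the sliding clamp gene PCNA1, at 28.6 and 27.5 against 48.9 and 66.2 RPM, did not pass (adjusted p = 0.0936, and 0.0319 with the block). Without leaf replicate 2, 12 members were called, and without apex replicates 1 and 2, 4 and 2 were: CYCD3;3, MCM3 and CDC6 ended without either apex replicate (adjusted p up to 0.0822), MCM5 without apex replicate 2 (0.0589) and CDT1A without leaf replicate 1 (0.0969), apex t0 replicate 2 or either apex t2 library. That of CDC6 ended without apex t2 replicate 2 as well. None of the called genes of mitosis and S phase other than AUR2 had an H3K27me3 island in leaf or apex t0.

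**Figure D3:**
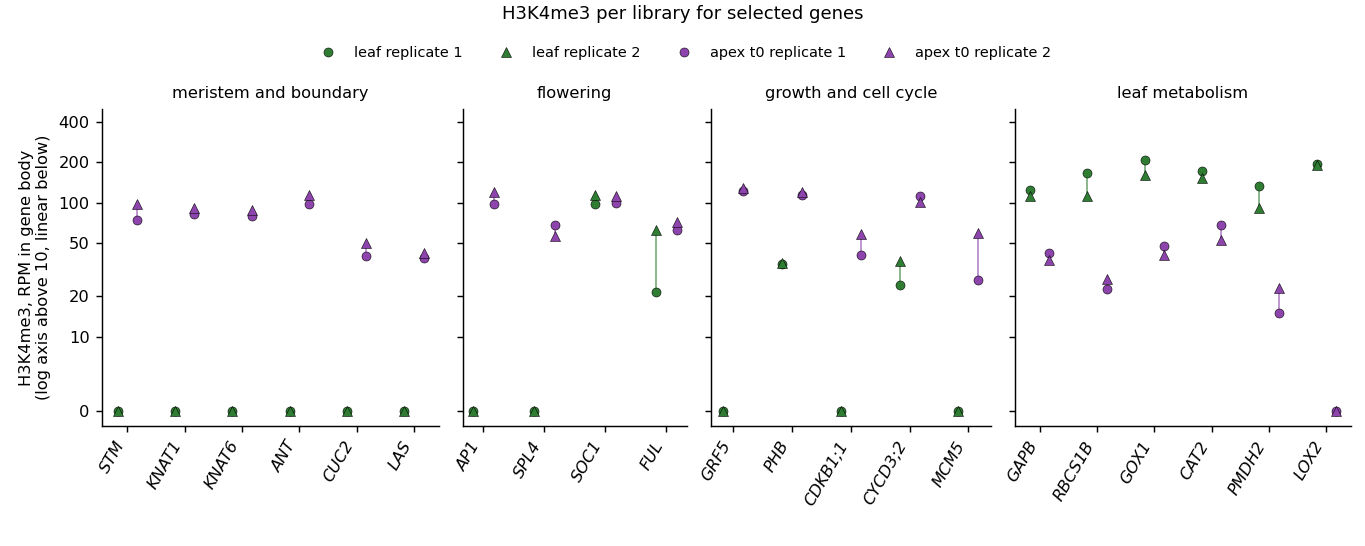
H3K4me3 in RPM per gene body (y axis, logarithmic above 10 RPM and linear below) for 21 genes in 4 groups (x axis); green marks are leaf and purple marks apex t0, circles replicate 1 and triangles replicate 2, joined by a line. Meristem, boundary and cell cycle genes mostly lie at 0 in leaf, the leaf and apex values of SOC1 overlap, and genes of leaf metabolism are lower in the apex.

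Photorespiration, which recycles the product of Rubisco's oxygenase reaction through chloroplast, peroxisome and mitochondrion, was the list with the largest share lowered. All 16 members were tested, 10 were lower and none higher. Of the 15 with islands in all 4 libraries 1 had a positive log2 fold change, and the median was -1.16; the summed level was 2384 and 1790 RPM in leaf and 967 and 900 RPM in the apex. In the peroxisome, the glycolate oxidase gene GOX1 measured 207 and 161 RPM in leaf and 47.2 and 41 RPM in the apex, a log2 fold change of -2.03 ± 0.23 (adjusted p = 0.00682). Catalase 2 (CAT2) measured 173 and 154 against 68.2 and 53 RPM (-1.43 ± 0.17, adjusted p = 0.0077), and the malate dehydrogenase PMDH2 134 and 92.1 against 14.9 and 23 RPM (-2.52 ± 0.28, adjusted p = 0.00657). For all 3 the lowest leaf value lay above the highest apex value, which adds no support for called genes, and their calls held. AGT1, the serine:glyoxylate aminotransferase, had 165 and 137 RPM in leaf and no apex island, where H3K27me3 measured 36.9 and 79.9 RPM against none in leaf. In the mitochondrion GLDP1, the P protein of glycine decarboxylase, measured 281 and 239 RPM in leaf and 126 and 95.1 RPM in the apex (-1.24 ± 0.23, adjusted p = 0.0258), whereas its paralogue GLDP2, at 130 and 138 against 162 and 164 RPM, was not called (0.29 ± 0.14, adjusted p = 0.264). GOX1 and GOX2 are neighbouring near-identical copies, so their separate values are uncertain.

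Of the GOX1 body 99.6% lay under islands in leaf and 45.8% in the apex, and of HPR1, the hydroxypyruvate reductase gene, 73.4% and 41.9%. In both leaf libraries 1 island, chr3:4821401-4825000, spanned GOX1 and part of the next gene; in the apex it was split, with chr3:4821601-4822800 in replicate 1 and chr3:4821601-4822600 in replicate 2 on GOX1. The other 7 photorespiration calls did not hold, although their log2 fold changes stayed negative whichever leaf or apex t0 library was left out. Without apex replicate 1 or 2 the calls of GOX2, HPR1, AGT1, GGT1, GLDP1, SHM1 and GLU1 ended (adjusted p up to 0.215), without leaf replicate 1 those of GOX2, AGT1, GGT1, GLDP1 and SHM1 (up to 0.144), and without either apex t2 library those of GOX2, GGT1, GLDP1 and SHM1 (up to 0.103). That of SHM1 ended without either inflorescence library too. Without leaf replicates 1 and 2 and apex t0 replicates 1 and 2 in turn, 5, 12, 3 and 3 members were lower.

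The Calvin cycle moved the same way. Of 17 tested genes 5 were lower and none higher, with a median log2 fold change of -0.95; with the block 10 were lower and with quantile normalization 9. GAPB, the B subunit of the chloroplast glyceraldehyde-3-phosphate dehydrogenase, measured 124 and 112 RPM in leaf and 42.1 and 37.1 RPM in the apex (-1.55 ± 0.14, adjusted p = 0.00443), and Rubisco activase (RCA) 230 and 170 against 64.8 and 60 RPM (-1.65 ± 0.22, adjusted p = 0.00977). The small subunit genes of Rubisco were unequal: RBCS1B fell from 166 and 113 RPM to 22.8 and 27 RPM, while RBCS1A, at 135 and 85.4 RPM in leaf and 88.6 and 71 RPM in the apex, was not called (-0.43 ± 0.24, adjusted p = 0.349). RBCS1B, RBCS2B and RBCS3B are tandem copies of nearly the same sequence, so reads may be shared among them; the difference between RBCS1A and RBCS1B was not tested. The calls of GAPB and RBCS1B held. Those of FBA2 and HCEF1 ended without leaf replicate 1 or any apex library of t0 or t2 (adjusted p up to 0.193) and that of RCA without either apex t0 library (up to 0.0625); 3, 10, 2 and 2 members were called without leaf replicates 1 and 2 and apex replicates 1 and 2.

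Light harvesting and photosystem genes gave fewer calls. Of 42 tested 4 were lower (9 with the block), and none was higher; of the 41 with islands in all 4 libraries 4 had a positive log2 fold change, with a median of -0.39. The 4 were LHCB2.3, with 43.7 and 38.3 RPM in leaf and no apex island, LHCB2.1, PSBO2 and PSBQ2. PSBQ2, a subunit of the oxygen-evolving complex, measured 140 and 83.9 RPM in leaf and 53.1 and 41.6 RPM in the apex (-1.19 ± 0.26, adjusted p = 0.0484). None of these calls held: all 4 ended without leaf replicate 1 or either apex library (adjusted p up to 0.195), those of PSBO2 and PSBQ2 also without any apex t2 or inflorescence library and that of LHCB2.1 without apex t2 replicate 2. Without leaf replicate 2, 14 members were lower. Of 12 tested genes of chlorophyll synthesis 1 was lower, CAO, at 108 and 80.2 against 55.8 and 52.7 RPM (adjusted p = 0.0422), a call that ended without any library but leaf replicate 2, and the list's median was -0.06.

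Genes of leaf ageing were lower as well. Of 10 tested 4 were lower and none higher, and the median was -0.42 over the 7 with islands in all 4 libraries; the summed level was 766 and 828 RPM in leaf and 366 and 444 RPM in the apex. The senescence-promoting NAC genes NAC092 (98.3 and 82.3 RPM) and NAP (57.2 and 65.2 RPM) had islands in leaf and none in the apex, and both calls held. Those of SAG101 and WRKY53, with log2 fold changes of -0.55 ± 0.11 and -0.76 ± 0.17, ended without each of 7 and 8 libraries (adjusted p up to 0.237); that of SAG101 remained without inflorescence replicate 2.

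Regulators typical of leaves were mostly not called, although the share called lay above the 8.08% over all genes tested. Of 17 tested leaf-class KNOX, BEL1 and TCP genes 3 were lower and 1 higher, with a median of -0.15 over the 15 with islands in all 4 libraries; 6 were lower with the block, 5 under TMM scaling and 6 under quantile normalization. BLH2 and BLH4, BEL1-like genes that act in leaf shape, measured 178 and 114 RPM and 157 and 116 RPM in leaf and 20.9 and 22.7 RPM and 16.5 and 21.9 RPM in the apex. On both, H3K27me3 was the reverse, at most 25.2 RPM in a leaf library against 260 and 239 RPM on BLH2 and 305 and 263 RPM on BLH4 in the apex. KNAT3 was not called, at 137 and 95 RPM in leaf and 137 and 98.4 RPM in the apex (0.02 ± 0.28, adjusted p = 0.978). The BLH4 call held, and those of BLH2, TCP10 and BLH5 ended without leaf replicate 1 or either apex library (adjusted p up to 0.106), that of BLH5 also without apex t2 replicate 2 and under quantile normalization. Without leaf replicate 2, 5 members were lower.

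Hormone genes were called in both directions, and over all genes tested 4.24% were called higher and 3.84% lower. Among 15 tested auxin genes 2 were higher and 1 lower (4 and 2 with the block; median 0.10 over 9 genes). MONOPTEROS (MP), an auxin response factor needed for organ initiation, measured 124 and 133 RPM in the apex and had no leaf island, and its call held. The efflux carrier gene PIN4 measured 185 and 114 RPM in leaf and 26.7 and 31.7 RPM in the apex (-2.28 ± 0.41, adjusted p = 0.0241) and carried H3K27me3 in the apex only, at 156 and 127 RPM. The calls of PIN4 and of the auxin synthesis gene YUC4 ended without leaf replicate 1 or either apex library (adjusted p up to 0.154). Of 16 tested gibberellin genes 3 were higher and 1 lower (median 0.05 over 9 genes): GA20OX2, a synthesis gene, measured 34.7 and 45.3 RPM in the apex and none in leaf, and its call held, while those of GA3OX2, GA2OX4 and GA2OX6 ended without each leaf, apex t0 or apex t2 library (adjusted p up to 0.245). Of 22 cytokinin genes 1 was higher and 1 lower (4 and 1 with the block; median 0.05 over 14), namely LOG4, at 19.1 and 28.3 RPM in the apex only, and ARR16, at 45.8 and 55 RPM in leaf only; both ended without leaf replicate 1 (adjusted p up to 0.0877), LOG4 also without apex t0 or apex t2 replicate 2 and ARR16 without leaf replicate 2.

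Jasmonate and defence genes split at LOX2 and VSP1. Of 14 tested 1 was higher and 1 lower (2 and 3 with the block; median -0.22 over 11), and both calls held. LOX2, the chloroplast lipoxygenase of jasmonate synthesis, measured 195 and 193 RPM in leaf, where its islands spanned chr3:16525401-16529200 and chr3:16525201-16529200, and had none in the apex; H3K27me3 there was 0 and 34.2 RPM in leaf and 81.7 and 107 RPM in the apex. VSP1, a jasmonate-inducible storage protein gene, measured 35.8 and 40.4 RPM in the apex and had no leaf island. Its tandem copy VSP2, at 54.7 and 41.1 RPM in the apex only, did not pass (adjusted p = 0.0693, and 0.0403 with the block), and reads on the pair may be shared. MYB28, which controls aliphatic glucosinolate synthesis, was lost in the apex from 49.3 and 53.9 RPM, 1 of 3 tested genes of that list, and this call held.

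Among 13 tested genes of stomata and trichomes 1 was called, GL2, a trichome and root hair regulator, at 24.5 and 25.2 RPM in leaf and 74.4 and 64.1 RPM in the apex (1.44 ± 0.18, adjusted p = 0.00774), and 3 with the block; the list's median was 0.27 over 7 genes, and the GL2 call ended without apex replicate 1 (0.06). The defining guard cell genes MUTE and FAMA had no island in any of the 4 libraries. Of 24 tested enzymes and partners of H3K4 and H3K27 methylation 0 were called by limma (2 higher with the block or without leaf replicate 2) and 2 passed at an unadjusted p of 0.05, with a median log2 fold change of 0.13. Closest were REF6, an H3K27 demethylase, at 51.4 and 64.8 RPM in leaf and 87.1 and 87.2 RPM in the apex (0.59 ± 0.15, adjusted p = 0.0797, and 0.0284 with the block), and ATX1, at 35.7 and 52.5 against 72.8 and 68.9 RPM (0.70 ± 0.18, adjusted p = 0.0798, and 0.0427 with the block). Of 11 reference housekeeping genes 1 was lower, GAPC1 (-0.62 ± 0.13, adjusted p = 0.041), a call lost without any 1 of the 8 libraries (adjusted p up to 0.163); their median was -0.05.

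Among genes with a symbol and islands in all 4 libraries, the greatest falls include BLH4, BLH2, PMDH2 and RBCS1B, described above, and the genes that follow belong to none of the 25 lists. AGG3, a G-protein gamma subunit that promotes organ growth, rose by 2.73 ± 0.33 on the log2 scale, from 10.1 and 14.4 RPM to 72.2 and 102 RPM (adjusted p = 0.00754). XTH9, whose apex islands reached into the next gene, and GH9B1, both cell wall enzymes of growing tissue, followed with log2 fold changes of 2.59 ± 0.19 and 2.43 ± 0.23. CYCD1;1, a D-type cyclin, measured 27.3 and 22.1 RPM in leaf and 96.5 and 122 RPM in the apex (adjusted p = 0.00384). The steepest fall was that of TDT, the vacuolar malate transporter, from 137 and 97 RPM to 8.78 and 12.3 RPM (-3.35 ± 0.40, adjusted p = 0.00754). CHUP1, needed for the placing of chloroplasts, measured 189 and 151 RPM in leaf and 23.2 and 35.7 RPM in the apex (-2.51 ± 0.24, adjusted p = 0.00498), PEN2, a myrosinase of defence, 171 and 163 against 30.1 and 28.6 RPM (-2.47 ± 0.18, adjusted p = 0.0024), and NIA2, a nitrate reductase, 314 and 195 against 65.5 and 35.5 RPM (-2.33 ± 0.44, adjusted p = 0.0278). For each of these genes the 2 leaf values and the 2 apex values did not overlap. They were chosen as large called changes, so this adds no support. The calls of AGG3, XTH9, GH9B1, CYCD1;1, CHUP1 and PEN2 held; that of TDT ended without apex replicate 1 (0.0502) and that of NIA2 without leaf replicate 1, either apex library or inflorescence replicate 1 (adjusted p up to 0.13).

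Of the 14666 genes with islands in all 8 H3K4me3 libraries, the change of a gene could be divided into the length of gene body covered and the density of reads under the islands. Density alone was higher in 33 genes (0.225%) and lower in 60 (0.409%), and covered length was longer in 296 (2.02%) and shorter in 172 (1.17%). The genes called higher for reads, 372 in this set, had a median log2 change of 0.66 in covered length and 0.39 in density, beside 0.02 and -0.05 over all genes; 369 and 321 of them changed in the same direction as their reads. For the 339 called lower the medians were -0.58 and -0.67. Length and density are parts of the same reads, so this describes the calls and is no further test of them. Density counts moved most with the settings. Without leaf replicate 1 or apex t0 replicate 1 at most 1 gene was called for density, without leaf replicate 2 274 were higher and 507 lower, and with the replicate block 243 were higher and 413 lower. Covered length moves in steps of 200 bp and was identical between replicates in both tissues in 2481 genes, which include 294 of the 468 called, so its spread is understated there.

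Individual genes took different routes. XTH9 gained mostly density, by 1.79 ± 0.17 on the log2 scale (adjusted p = 0.00308), while its cover went from 1000 and 800 bp to 1644 bp in both apex libraries. CYCD1;1 lengthened from 600 bp in both leaf libraries to 2200 and 2400 bp, with a log2 density change of 0.21 ± 0.20 (adjusted p = 0.866). In PMT6, a sugar transporter gene, cover fell from 2105 bp in both leaf libraries to 505 bp in both apex libraries (log2 change -2.06 ± 0.16, adjusted p = 0.00627). Density did not pass (0.47 ± 0.17, adjusted p = 0.28). PMT6 was not the gene with the most body under any apex t0 island, so its apex cover and density come from islands that lay more on another gene. With cover identical between replicates in both tissues, the spread of its covered length is understated. PIP2E, an aquaporin gene, lost density instead (-1.65 ± 0.22, adjusted p = 0.0188), with 1800 and 1400 bp covered in leaf and 1200 bp in both apex libraries, and had H3K27me3 only in the apex, at 150 and 133 RPM.

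**Figure D4:**
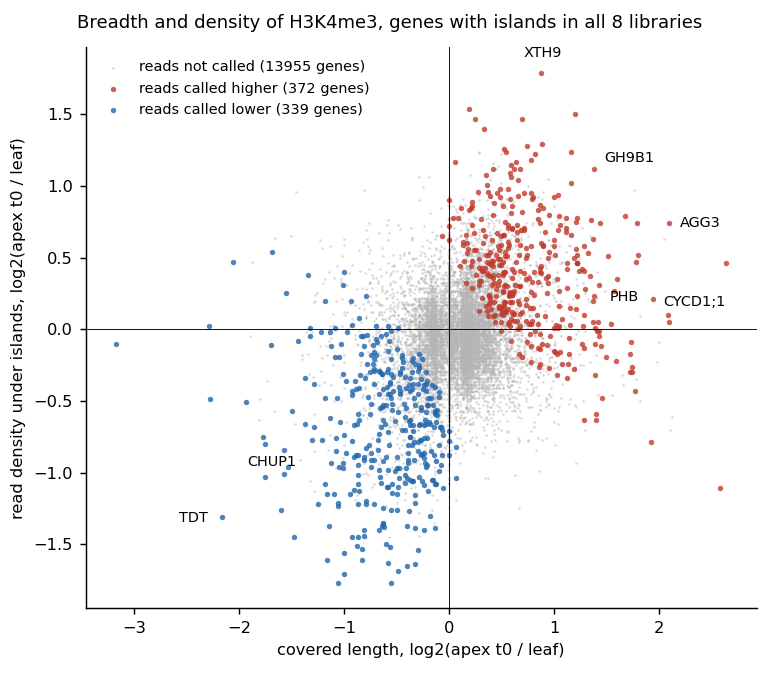
Log2 change from leaf to apex t0 of the covered length (x axis) and of read density under islands (y axis) for the 14666 genes with islands in all 8 H3K4me3 libraries; red points are the 372 genes called higher for reads, blue points the 339 called lower and grey points the rest. CYCD1;1 moved along the length axis and XTH9 mainly along the density axis.

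An island was gained, present on at least 200 bp in both apex libraries and absent from both leaf libraries, on 555 genes (3.16%), and lost in the same sense on 435 (2.47%). Counted over merged regions, 556 of 17232 lay in both apex libraries only and 436 in both leaf libraries only, and 94.4% and 91.5% of these overlapped a protein-coding gene. Gained islands were weak beside those shared by all: their genes had a median of 21.3 and 33 RPM in the apex, lost genes 34.2 and 43.5 RPM in leaf, and genes marked in all 4 libraries 53 to 54.5 RPM. Leaving out leaf replicate 2 raised the gained genes to 1532 and leaving out apex replicate 1 to 897, and leaving out leaf replicate 1 or apex replicate 2 raised the lost genes to 1054 or 728. Among genes with a symbol, those gained at the highest level per length were AGP31, an arabinogalactan protein gene (145 and 122 RPM), GRF6, GRF5 and ZFHD1, a zinc finger homeodomain gene (76.9 and 64 RPM). Further down stood SPL8, a regulator of early anther development (133 and 95.8 RPM), HB31, of the ZFHD1 family (125 and 118 RPM), and EXPA4, an expansin (80.9 and 94.2 RPM), and all of these calls held. Lost at the highest level were AR781 (117 and 87.1 RPM), RAV2, SOT18, a sulfotransferase of glucosinolate synthesis (87.6 and 79.3 RPM), and NAC092; HBI1, a growth-promoting bHLH gene, was lost from 203 and 77.1 RPM. The calls of SOT18 and NAC092 held, that of HBI1 ended without leaf replicate 1 (0.0724), and that of AR781 without any leaf, apex t0 or inflorescence library (up to 0.171).

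The other libraries were not used to choose these genes, apart from the requirement of being tested. Of the 555 gained genes 87.6% were marked in both apex t2 libraries, from the same mutant 2 days after induction, and 42.3% in both inflorescence libraries. Of the 435 lost genes the same figures were 1.61% and 25.7%, against 94.3% and 91.8% of all genes tested. H3K27me3 lay in both leaf libraries on 49.5% of the gained and 34.7% of the lost genes, and in both apex t0 libraries on 48.8% and 60.9%, against 9.52% and 12.6% of all genes tested. An island of H3K27me3 in both leaf libraries and neither apex library was found on 5.05% of gained genes, 0.69% of lost genes and 1.06% of all; the reverse was found on 1.44%, 16.8% and 2.81%. Most gained genes with H3K27me3 in leaf thus had it in the apex as well: 42.9% of the 555 carried it in all 4 libraries of that mark. Among genes with H3K4me3 islands in all 4 libraries, H3K27me3 in the apex only was found on 16.4% of the 341 called lower and 0.538% of the 372 called higher. These shares are descriptions, with no test of the difference between groups of genes.

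Single genes show both forms. ANT, an organ growth regulator gained at 98.3 and 115 RPM, had H3K27me3 at 103 and 118 RPM in leaf and no island of it in the apex, and BLH9 had 240 and 233 RPM in leaf and none in the apex. TDT, lowered in the apex, had none in leaf and 130 and 123 RPM in the apex, as did FLA9, a fasciclin-like gene lost from 70.9 and 52.5 RPM of H3K4me3, at 71.5 and 69.2 RPM. On AP1 and GRF5 both marks were present in the apex, with H3K27me3 at 270 and 197 RPM on AP1 and 75.9 and 91.6 RPM on GRF5. CHUP1 and PMDH2 fell without any H3K27me3 island in either tissue.

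**Figure D5:**
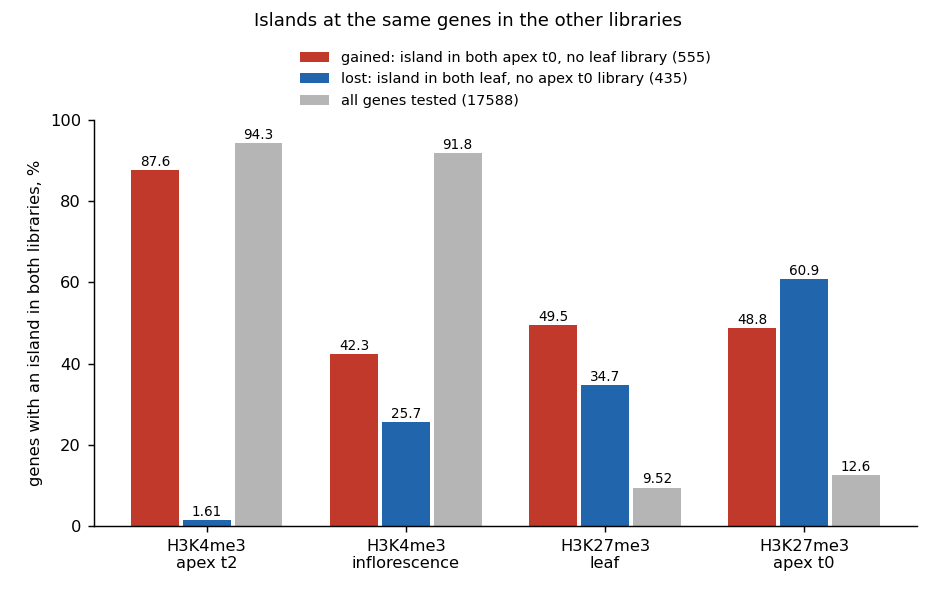
Percentage of genes (y axis) with an island in both libraries of H3K4me3 at apex t2 and inflorescence and of H3K27me3 in leaf and apex t0 (x axis), for the 555 genes that gained an H3K4me3 island in apex t0 (red), the 435 that lost one (blue) and all 17588 genes tested (grey). Gained genes kept the mark at apex t2 in 87.6% of cases, and lost genes carried it there in 1.61%.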

How the data were processed

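Per the submitters' processing notes, the tools were SICER 1.1 for islands, BWA 0.6.2-r126, bedtools 2.17.0-97, CASAVA 1.8.2, Picard 1.93 and SAMtools 0.1.19, and the build was TAIR10. Window, gap and threshold are not given in the sources used here. The deposited tables hold, per library, each island's position and its ChIP reads, which are whole counts by their values and were not normalized by the authors; the other columns were not used. Per the labels, the replicate numbers stand for different sonication, antibody lots, sequencers and library kits, and each library numbered 2 pools 3 technical ChIPs.

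Islands were joined to the 27444 protein-coding genes of a RefSeq table (assembly TAIR10.1; 10374 with a symbol of their own). Its gene positions were used only to find overlaps, since shifting them lowered the overlap with islands from 15.414 Mb to at most 13.297 Mb, and they are not printed. The table gives no strand and no sequence. Organelle islands, 288494 reads in inflorescence replicate 2, were left out. An island that spans several genes was divided by the length in each, so neighbouring genes can share a change.

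Log2(RPM + 1) was tested with limma 3.58.1 (statmod 1.5.0, R 4.3.3), with a mean trend and robust moderation, on the 8 H3K4me3 libraries of all 4 stages, which share 1 estimate of the spread with 4 residual degrees of freedom. A gene was tested if islands covered at least 200 bp of it in each replicate of any stage. P-values are two-sided and adjusted by Benjamini-Hochberg over all genes tested; they measure only the spread between these libraries, and 2 against 2 libraries could not pass an exact permutation test. The call threshold is 0.05. A gene's value is a fraction of island reads, so no count model was run. Fold changes of single genes and list medians are printed only where all 4 libraries have an island, apart from UFO in the list of alternatives.

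Because the labels say that replicate numbers mark shared preparation conditions, the numbers pair the libraries; deviations of same-numbered libraries correlated at 0.236 to 0.448 between stages. The fit without the block is the main one, so differences between replicate numbers stay in its spread. It gave 1421 calls against 2537 with the block, so a gene not called may pass with the block.

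Genes named are members of 25 lists of 441 genes (those past the threshold by size, then well-known ones), and, with a symbol, the 12 largest changes each way among genes in all 4 libraries, the 12 highest gained and lost per length, and the 5 largest each way in density and length. The members and lists were chosen with earlier results of these data known. CLV1, SOC1, FUL, LFY, CUC1, KNAT3, KNOLLE and other uncalled genes are shown as well-known members. Alternatives were other scalings, pseudocounts, overlap minimums, a stricter island set, the 4 libraries alone, the block, no trend and leaving out each library; a window of 500 bp before the start was not run for want of strand, and 500 bp on both sides was added after seeing the data.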

Additional observations from a re-analysis of the deposited data

How the results depend on the processing

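Over the alternatives that keep all 8 libraries, the 1421 calls ranged from 971 without the sparsest 25% of islands to 2537 with the replicate block; the first left 492 genes called higher, and the block gave 1350 higher and 1187 lower. With 1 library left out the total ranged from 540 to 3038, the higher calls from 244 to 2277 and the lower calls from 199 to 761. For density, 33 higher and 60 lower became 16 and 12 under TMM scaling, 85 and 224 with the 4 libraries alone, 243 and 413 with the replicate block, and 0 to 274 and 0 to 507 with 1 library left out. For covered length, 296 longer and 172 shorter became 483 and 264 with the 4 libraries alone, and 288 to 1854 and 156 to 813 with 1 library left out. Gained genes ranged from 573 to 1532 and lost genes from 455 to 1054 with 1 library left out, where a single library decides presence, and from 468 to 607 and 393 to 554 otherwise. The cause was not tested. Of the 136 named genes that were called, 132 kept the call under TMM, 125 under quantile normalization, 126 with 500 bp added on both sides, which was chosen after seeing the data, and 100 with the 4 libraries alone; 75 kept it without apex t0 replicate 1. Without the sparsest islands 52 of 95 kept it, 42 did not pass and XRCC4 turned to 0.05. CLV1 turned to -0.02 under TMM and ranged from -0.11 to 0.17 with 1 library left out, SOC1 turned to 0.04 under quantile normalization and ranged from -0.12 to 0.10, and UFO ranged from -0.65 without leaf replicate 2 to 5.07. The replicate block ended no call of a gene named here; beside the gains given above, it added RBCS3B (adjusted p = 0.0528, and 0.0164 with the block). Leaf replicate 1 holds the fewest reads of the 4 libraries, and the part of depth in its missing islands was not tested.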

Other observations

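The 132 genes with an H3K4me3 island in replicate 1 of leaf and of inflorescence, and none in replicate 2 of either, are mostly unmarked in the mutant apices: 101 had no island in any of the 4 apex libraries of t0 and t2, and 17 were marked in both apex t0 libraries. The reverse, an island in replicate 2 of both wild-type stages and none in replicate 1, held for 361 genes. Of the 132, 18 were tested. UFO, an F-box gene of the flower meristem, read 51.7 and 0 RPM in leaf, 37.8 and 28.2 RPM in apex t0 and 35 and 0 RPM in the inflorescence. Another is the receptor kinase gene CRK14. Replicate 2 is the deeper library of each pair, and the part of depth in the pattern was not tested.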
